A study of Homo sapiens with 16 samples.

Results

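The effect of genotype in the presence of ligand was measured by setting 16HBE-ex14 cells given HGF (16HBE-ex14+HGF) against wild-type cells given HGF (16HBE-WT+HGF), on 8 of the 16 arrays of the series, 4 for each genotype. The 16HBE line was derived from human bronchial epithelium and immortalised with the SV40 large T antigen. The 16HBE-ex14 cells were clone F, a single clone in which CRISPR/Cas9 editing made the MET transcript skip exon 14, and the 16HBE-WT cells carried unedited MET. Both genotypes were starved of serum for 2 h and then given HGF at 20 ng/mL for 24 h, and the other 8 arrays were of the same cells without HGF. The members were chosen by these labels alone, and the comparison was described across 34599 of 58201 probes, those that the scanner software marked as well above background on 4 or more of the 16 arrays, which carry 26373 gene names. Because the edited line is 1 clone, differences caused by the edit and differences that arose in cloning cannot be told apart in any result given here. The titles of the 16HBE-WT+HGF arrays use other letters than those of the untreated wild-type arrays, and their genotype was taken from their other labels.

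MET is the receptor tyrosine kinase for hepatocyte growth factor (HGF). Ligand binding activates the RAS-ERK and PI3K-AKT pathways, which drive motility, survival and remodelling of the matrix in epithelial cells. Exon 14 encodes part of the juxtamembrane domain, including the docking site of the ubiquitin ligase CBL. Its loss is known from lung tumours to slow the removal of the receptor. In the edited bronchial cells, however, the study found that the receptor without this exon was significantly degraded after HGF. It tended to be more stable there than the wild-type receptor, but the difference was not statistically significant.

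Values are log2 intensities relative to the 75th percentile of each array, which lay between 139.5 and 191 intensity units on the 16HBE-WT+HGF arrays and between 201.8 and 262.8 on the 16HBE-ex14+HGF arrays. Between 49% and 56.1% of probes were well above background on the former and between 55.7% and 60.3% on the latter. Array profiles correlated at 0.983 to 0.992 within a genotype and at 0.971 to 0.983 between genotypes (Pearson, across tested probes). All 14 bronchial epithelial identity markers, among them EPCAM, CDH1, TP63 and the keratin genes KRT7, KRT8 and KRT18, were above background on all 8 arrays, and of them only KRT5 was called as different. Of the fibroblast markers 5 of 12 passed the background filter, of the endothelial markers 3 of 10 and of the blood cell markers 8 of the 9 on the array. COL1A2, COL3A1, PECAM1 and KDR did not pass. Of those that passed, the blood cell marker CSF1R was above background on every array. The fibroblast marker LUM was above it on every wild-type array and on no other. Whether replicates were separate cultures is not in the labels, but the study's methods give 4 replicates a week apart.

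With HGF in both lines, 3749 probes (10.8% of those tested) differed between the genotypes, 1839 higher (5.32%) and 1910 lower (5.52%) in 16HBE-ex14+HGF cells, from 3287 gene names. A probe was counted as called at an adjusted p below 0.05 (limma, Benjamini-Hochberg over all tested probes) and a fold above 1.5. The median absolute log2 difference of the called probes was 0.84, and 229 of them differed by more than 2 on that scale. Of the called probes, 3413 (91%) had all 4 arrays of one genotype above all 4 of the other, which held for 23.9% of all tested probes. The arrays lay on 2 slides, and all 3749 differences had the same sign within each slide. These probes were chosen on both slides together, so that agreement is largely a consequence of the choice. Called were 2495 probes within slide 1 and 3484 within slide 2. The split into higher and lower depended on scaling. It was 66.6% higher when arrays were scaled to their median and 35.4% without the background filter, against 49.1% here.

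The same genotype comparison without HGF, on 8 other arrays, called 3252 probes (9.4%), 1562 higher and 1690 lower. Of the probes called with HGF, 2179 were called in the same direction without it, which is 58.1% of the list with HGF and 67% of the list without, and 1 probe was called in opposite directions. The remaining 1569 were called with HGF only, and 1490 of these had the same sign without it. Over all tested probes, 77.4% had the same sign in both comparisons. Over all tested probes the differences with and without HGF correlated at r = 0.75 (Spearman's rho 0.69), a description across probes of the same lines and array positions. The median ratio of the difference without HGF to that with HGF was 0.82 among the called probes, with quartiles of 0.59 and 1. Because these probes were chosen by their difference with HGF, a ratio below 1 can come from the choice alone. The test of the difference between these contrasts called no probe (0%), with a smallest adjusted p of 0.213 by limma and 1600 probes at an unadjusted p below 0.05, where 5% of the tested probes is 1730. With other settings or 1 array left out it called between 0 and 11 probes, the latter without 16HBE-ex14 replicate 3.

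**Figure D1:**
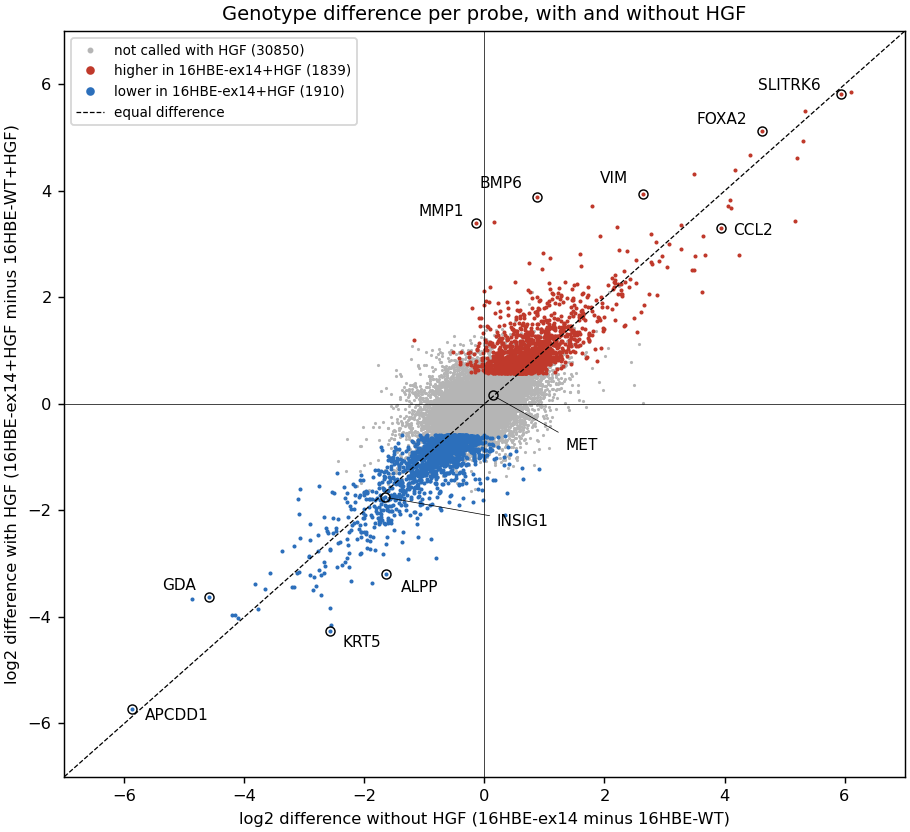
Genotype difference of each tested probe without HGF (horizontal axis, log2) and with HGF (vertical axis, log2). Red and blue points are the 1839 probes called higher and the 1910 called lower with HGF, grey points are not called, the dashed line marks equal differences, and circled genes are described in the text. Most called probes lie near the line, while MMP1 and BMP6 lie far above it and KRT5 and ALPP below it.

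The largest differences among probes above background on all 8 arrays were a mixture of a mesenchymal filament gene, growth factor and chemokine genes, and surface proteins. IGF2, which encodes insulin-like growth factor 2, measured -2.87, -2.80, -2.07 and -1.40 on the 16HBE-WT+HGF arrays and 2.17, 1.89, 1.96 and 2.14 on the 16HBE-ex14+HGF arrays. The 2 genotypes did not overlap, and the log2 difference was 4.32 (SE 0.31, adjusted p = 5.39e-07). VIM, the intermediate filament gene vimentin of mesenchymal cells, measured -0.40, -0.91, -0.63 and -0.68 in 16HBE-WT+HGF and 3.37, 2.89, 3.47 and 3.43 in 16HBE-ex14+HGF cells. Its difference was 3.94 (SE 0.21, adjusted p = 2.7e-08) with HGF and 2.65 (SE 0.21) without. CCL2, a chemokine that attracts monocytes, was 9.87-fold higher, at -2.80, -2.97, -3.24 and -2.75 against 0.65, 0.44, 0.02 and 0.35. The CCL2 difference without HGF was 3.94, so this gene was not farther from the wild type with the ligand.

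COL4A4, a basement membrane collagen chain, was higher by 3.16 and PDE4A, a cAMP phosphodiesterase, by 2.66 on the log2 scale. For PDE4A, 2 other probes differed by -0.20 and 0.20 and were not called, so the difference belonged to 1 of its 3 probes. FABP5, a fatty acid binding protein with similar pseudogenes, was higher by 3.20, and its 2 other tested probes by 2.71 and 2.34. On chromosome 16 lie 3 more of the 10 largest, CDYL2 (3.37), ZNF469 (3.04) and the forkhead factor gene FOXL1 (2.59), and AGMAT on chromosome 1 completed them at 2.43. All 10 were also called higher without HGF. Normexp, a background correction run here with an added offset of 50 intensity units, compresses dim signals. With it CCL2 differed by 1.77, COL4A4 by 1.82, FABP5 by 1.48 and PDE4A by 1.54, in the same direction and smaller.

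KRT5, a keratin of basal airway cells, led the lower genes. Its values were 2.03, 1.85, 1.82 and 2.28 on the 16HBE-WT+HGF arrays and -2.04, -1.91, -2.48 and -2.63 on the 16HBE-ex14+HGF arrays. That is 19.2-fold lower (log2 difference -4.26, SE 0.19, adjusted p = 3.26e-09), against -2.57 without HGF, and the difference between the contrasts, -1.69, had an adjusted p of 0.213, and of 0.0195 with a trended and robust prior. ALCAM, a cell adhesion molecule, was at 3.40, 3.28, 3.52 and 3.38 against -0.57, 0.38, 0.11 and -0.10, a difference of -3.44 (adjusted p = 1.16e-07). BST2, the interferon-induced surface protein tetherin, measured 4.72, 4.90, 4.93 and 4.97 against 1.91, 1.48, 1.59 and 1.53, and its second probe differed by -3.22 beside -3.25. Both surface proteins were separated completely between the genotypes, and without HGF they differed by -3.21 and -2.84.

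ALPP, placental alkaline phosphatase, was 9.14-fold lower, with 4.24, 4.31, 3.91 and 4.16 against 1.37, 1.34, 0.42 and 0.71. Without HGF the ALPP difference was -1.64, and the difference between the contrasts was -1.55 (unadjusted p = 0.000189, adjusted p = 0.411). GDA, guanine deaminase, was lower by 3.63 on the log2 scale with HGF and by 4.59 without it, where it was not above background on any 16HBE-ex14 array. With normexp GDA differed by -1.80, CSPG4 by -1.29, FGD3 by -1.29 and TMEM71 by -2.01. HEG1, a transmembrane protein gene, differed by -3.07, CSPG4, a chondroitin sulphate proteoglycan, by -2.82, FGD3 by -2.92 and TMEM71 by -3.07. The TMEM71 arrays were scattered, with SDs of 0.64 and 0.90, and within slide 2 its difference was -2 (adjusted p = 0.104). MIEF1, a mitochondrial fission factor, was lower by 2.79 on 1 probe, while 2 other probes of MIEF1 differed by 0.42 and 0.37 and were not called.

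**Figure D2:**
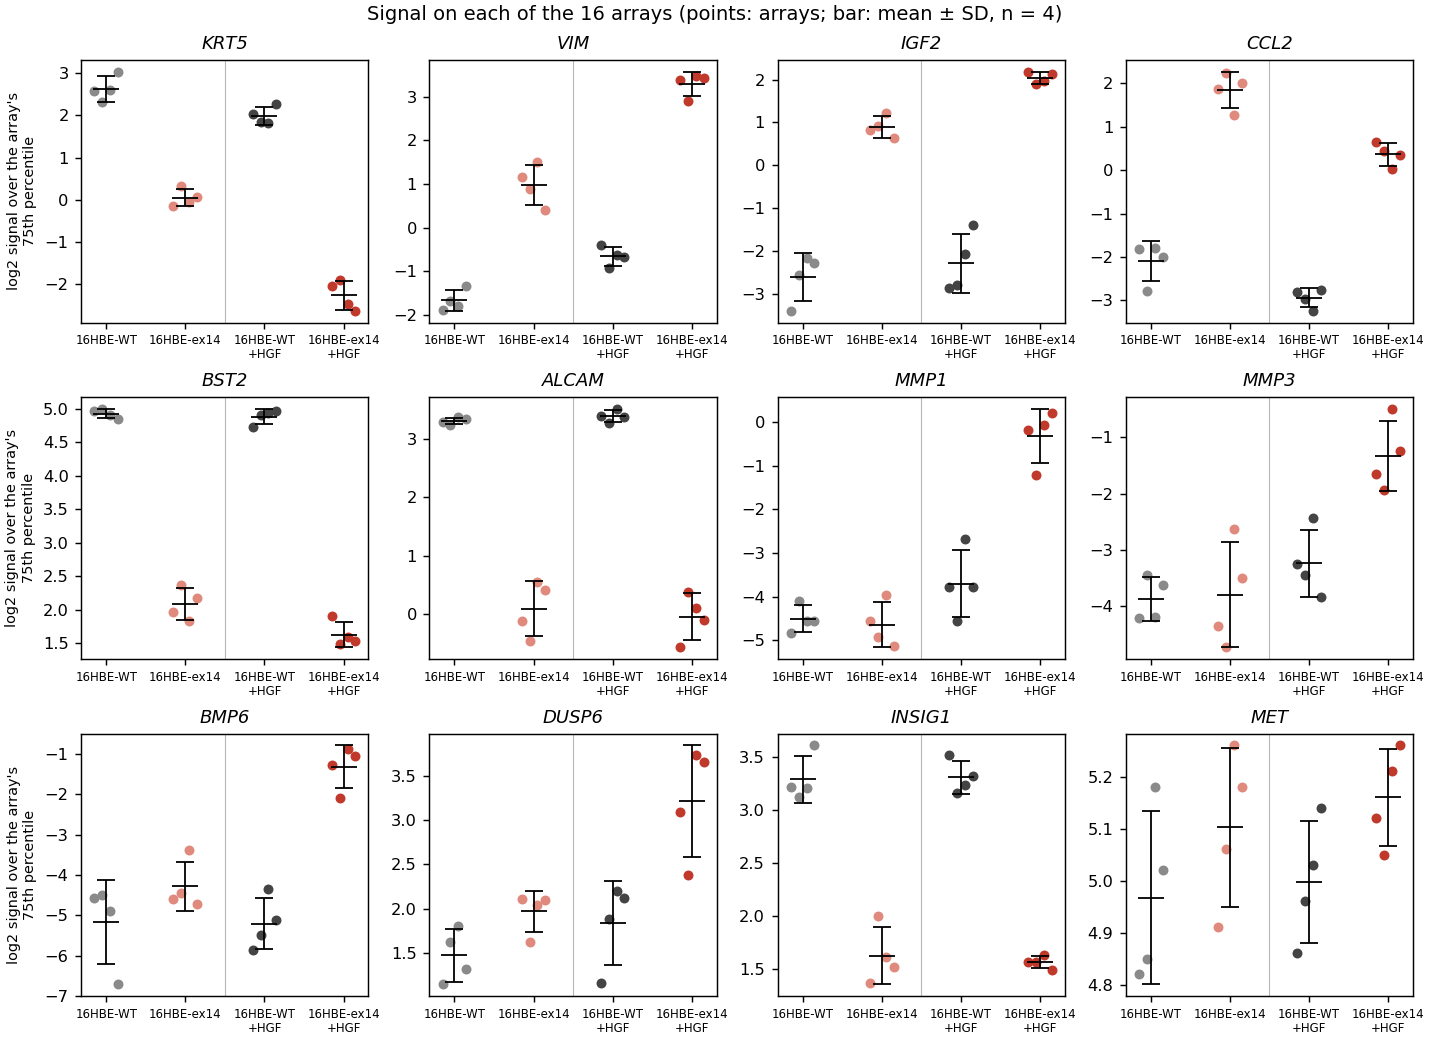
Signal of 12 genes on each of the 16 arrays, as log2 relative to the 75th percentile of the array, by condition. Points are arrays and bars are the mean ± SD (n = 4). KRT5, VIM, IGF2, CCL2, BST2, ALCAM and INSIG1 are separated between the genotypes with and without HGF, MMP1, MMP3, BMP6 and DUSP6 with HGF only, and MET in neither. For none of the 12 was the difference between the genotype contrasts called. The vertical axes differ between genes, do not start at 0, and cover a small range for MET.

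For 251 of the called probes no array of the dimmer genotype gave a signal well above background, so only a lower bound of the fold can be given. The bound sets the mean of the brighter arrays against a floor in the dimmer genotype, which on each array is the weakest signal still marked well above background, or the probe's measured value where that is greater. SLITRK6, a transmembrane protein of neural and epithelial tissue, was detected on 4 of 4 16HBE-ex14+HGF arrays, at -0.04, 0.36, 0.40 and 0.06, and on 0 of 4 16HBE-WT+HGF arrays. It was at least 20.2-fold higher (adjusted p = 1.03e-06 from limma), and a dimmer SLITRK6 probe was also called higher, by 1.28 on the log2 scale. By the same bound TRPS1, a GATA-type repressor, was at least 14.9-fold higher and TMTC2 at least 11-fold. HRK, which encodes a pro-apoptotic BH3-only protein, was at least 7.53-fold higher, and BMP6, a ligand of the TGF-beta superfamily, at least 7.07-fold. These 5 genes had 4 of 4 arrays above background in one genotype and 0 of 4 in the other. The bounds hold for the scanner's background subtraction only. With normexp the log2 differences were 2.03 for SLITRK6, 1.67 for TRPS1, 1.44 for TMTC2, 0.87 for HRK and 1.09 for BMP6, all smaller than the bounds and all still called, and a second TRPS1 probe differed by 2.06 without it.

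BMP6 differed from the other 4 in the comparison without HGF, where its log2 difference was 0.88 and was not called (adjusted p = 0.242). With HGF its arrays measured -1.28, -2.08, -0.87 and -1.05 in 16HBE-ex14 and -5.85, -5.50, -4.36 and -5.12 in 16HBE-WT cells. The difference between the contrasts was 3.01 (unadjusted p = 0.000536, adjusted p = 0.459), and with normexp it was 1.20 and called (adjusted p = 0.0339). In the other direction, APCDD1, an inhibitor of WNT signalling, was detected on all 4 16HBE-WT+HGF arrays at -0.86, -0.78, -0.88 and -0.70 and on no 16HBE-ex14+HGF array, and was at least 14.7-fold lower (adjusted p = 3.8e-08). LIN28B, which blocks maturation of let-7 microRNAs, was at least 6.83-fold lower, PNMA8A at least 5.51-fold, the scaffold gene PDZK1 at least 5.37-fold and FDCSP at least 4.99-fold. All 5 were called lower without HGF as well. With normexp they were still called, but below these bounds, with log2 differences of -1.62 for APCDD1, -0.97 for LIN28B, -0.80 for PNMA8A, -0.85 for PDZK1 and -0.77 for FDCSP.

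MET itself did not pass the test. Its probe measured 4.86, 4.96, 5.03 and 5.14 in 16HBE-WT+HGF and 5.12, 5.05, 5.21 and 5.26 in 16HBE-ex14+HGF cells, overlapping groups with a log2 difference of 0.16 (SE 0.11, adjusted p = 0.333). The probe lies near the 3' end of the transcript (chromosome 7, 116438290 to 116438349 on hg19), outside exon 14, so it does not show the edit and does not check the genotype labels. Neither HGF probe was above background on any of the 16 arrays. Of 21 tested genes of the receptor, ligand activation and adaptors, 1 (4.76%) was called, against 10.7% of all 26373 genes by their brightest probe, 5.29% higher and 5.36% lower (9.27% without HGF). It was LRIG1, a transmembrane inhibitor of receptor tyrosine kinases, at 0.43, 0.58, 0.53 and 0.64 against -2.08, -2.24, -1.96 and -1.96 (log2 difference -2.60, adjusted p = 8.32e-10). LRIG1 differed by -2.41 without HGF. The adaptor and ligase genes GAB1, GRB2 and CBL differed by 0.30, -0.06 and -0.03 and were not called.

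Among ERK feedback and target genes, 9 of 24 were called higher and 1 lower, and the median log2 difference was 0.52 against 0.002 over all genes. Without HGF, 5 were called higher and 1 lower, with a median of 0.16. DUSP6, the phosphatase that inactivates ERK, measured 1.16, 1.88, 2.20 and 2.12 in 16HBE-WT+HGF and 3.09, 2.38, 3.73 and 3.66 in 16HBE-ex14+HGF cells. The genotypes were separated, with a difference of 1.37 (SE 0.29, adjusted p = 0.00348). DUSP5, a nuclear ERK phosphatase, was higher by 1.29 and PHLDA1, an ERK target, by 1.27. Both were also called higher without HGF, by 1.01 and 0.84. SPRY4, a feedback inhibitor of RAS-ERK signalling, was higher by 1.35 with HGF, and its difference without HGF was 0.21 and not called. The difference between the contrasts was 1.14 for SPRY4 and not called (adjusted p = 0.918). Dimmer probes of DUSP6 and SPRY4 differed by 0.37 and 0.34 and were not called. Also called were the AP-1 subunit FOSL1 (1.10), the EGF receptor ligands EREG (0.93) and AREG (0.78), the ETS factor ETV5 (0.88) and SPRED1 (0.59). EPHA4, an ephrin receptor, was lower by 0.60. The immediate early genes FOS and EGR1 were not called, at -0.40 and -0.04. Within slide 1, 6 members of this list were called higher and 0 lower, and treat, which tests against the fold limit, called 1.

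Of 25 matrix proteases and inhibitors tested, 6 were called higher and 2 lower, 32% against 10.7% of all genes, and the median was 0. The study had named MMP1, MMP3, ADAM8 and ADAM19, all called higher here, from these same arrays, so the share is not independent of its result. MMP1, interstitial collagenase, measured -3.79, -4.55, -2.68 and -3.79 on the 16HBE-WT+HGF arrays, above background on 3 of them, and -0.19, -1.21, -0.06 and 0.21 on the 16HBE-ex14+HGF arrays. Its log2 difference was 3.39 (SE 0.38, adjusted p = 2.79e-05), and without HGF it was -0.14 (adjusted p = 0.852), where the probe was above background on 0 of 4 16HBE-WT and 1 of 4 16HBE-ex14 arrays. The difference between the contrasts was 3.53 (SE 0.54) with an adjusted p of 0.213. It was called with normexp, where it was 1.61 (adjusted p = 0.0291), with a trended and robust prior (adjusted p = 0.0195), without 16HBE-ex14 replicate 3 (0.0407) and without 16HBE-WT+HGF replicate 3 (0.0482). By normexp the genotype difference of MMP1 with HGF was 1.39.

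MMP3, stromelysin, gave -3.25, -3.44, -2.44 and -3.84 against -1.65, -1.93, -0.49 and -1.25, a difference of 1.92 (SE 0.43, adjusted p = 0.00574), and 0.07 without HGF. The difference between the contrasts was 1.85 and not called (adjusted p = 0.843). Within slide 1 the MMP3 call with HGF was lost (1.56, adjusted p = 0.0686), and by normexp the genotype difference with HGF was 0.72. MMP9, gelatinase B, was higher on every 16HBE-ex14+HGF array, at 4.25, 3.61, 3.87 and 3.74 against 3.12, 2.62, 3.20 and 3.47, but its adjusted p was 0.0645, and 8 of the alternative settings called it. The serine protease gene HTRA1 was higher by 2.01 (0.71 with normexp), the urokinase gene PLAU by 1.17, and the membrane proteases ADAM19 by 0.89 and ADAM8 by 0.88. The call of ADAM19 was lost within each slide (adjusted p = 0.127 and 0.0887). Lower were PLAT, tissue plasminogen activator (-1.63), and ADAMTS1, an aggrecan-cleaving protease (-1.61). ADAMTSL4 was not called by its brightest probe (-0.45, adjusted p = 0.0619), while a dimmer probe was called at -1.89.

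Integrin subunits, the receptors that bind matrix, had 4 of 15 called higher and 1 lower, with a median difference of 0.35 against 0.02 without HGF. ITGA2, ITGA10 and ITGB8, all called, had been named by the study from these same arrays, so these counts are not independent of its result. ITGA10, a collagen-binding subunit, measured -3.15, -2.92, -2.44 and -2.76 against -0.58, -0.95, -1.09 and -1.03 (difference 1.90, adjusted p = 0.000135), and was also called higher without HGF, by 1.04. ITGA2, another collagen-binding subunit, was at -1.36, -1.48, -2.47 and -2.14 against -0.41, -0.38, -0.82 and -1.09 (1.19, adjusted p = 0.00598), and 0.22 without HGF. Its difference between the contrasts was 0.97 and not called (adjusted p = 0.98). ITGB8, which binds latent TGF-beta with the alpha v chain, was the lower subunit (-1.29, adjusted p = 0.00107). ITGB3 and ITGA1 were not above background on any 16HBE-WT+HGF array. ITGB3 was at least 1.63-fold higher, and ITGA1 had no bound above 1, and with normexp their differences were -0.01 and -0.05. With normexp ITGA2 also lost its call (0.55) and ITGA10 differed by 0.77, so 1 integrin was then called higher and 1 lower. The abundant epithelial subunits ITGB1, ITGA6 and ITGB4 were not called, at -0.06, -0.02 and 0.41.

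Of 29 laminins, collagens and matrix glycoproteins, 9 were called lower, 3 higher and 17 not, and the median was -0.22, with -0.28 without HGF. Without scaling of the arrays, which moved the median of all probes by 0.38, this list's median was 0.17, with 6 called higher and 3 lower. COL17A1, the hemidesmosomal collagen of basal cells, was at 0.81, 0.80, 0.60 and 1.64 against -0.31, -0.80, -1.03 and -1.19 (difference -1.80, adjusted p = 0.000206), and a dimmer COL17A1 probe differed by -0.05. FN1, fibronectin, was lower by 1.77 (adjusted p = 2.57e-05, and -0.95 with normexp) and the perlecan gene HSPG2 by 1.26. THBS1, TNC, TGFBI, COL7A1, COL4A1 and LAMB1 were lower by 0.70 to 0.97. NID1, nidogen, which links laminin and collagen networks, was the most raised at 1.81 (adjusted p = 5.31e-07), followed by COL13A1, a transmembrane collagen, at 1.76.

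Basal and stress keratins were called in 7 of 9 tested genes, 5 lower and 2 higher, with a median of -1.01 (-0.70 without HGF). Beside KRT5, its basal partner KRT14 was at 1.00, 1.36, 1.19 and 1.93 against -0.88, -0.89, -0.76 and -0.85 (difference -2.21, adjusted p = 1.03e-05). KRT17 differed by -2.24, KRT6A by -1.18 and KRT16 by -1.01. In the opposite direction, KRT6B measured -3.50, -4.60, -3.43 and -3.70 against -1.23, -1.74, -1.64 and -1.99 (2.16, adjusted p = 0.000252, and 0.61 with normexp), and KRT15 was higher by 0.71. These type I and type II keratins are close paralogues, and hybridisation between them was not tested. TP63, the master factor of basal cells, differed by 0.01. Of the 5 tested simple epithelial keratins, among them KRT7, KRT8, KRT18 and KRT19, none was called, with differences between -0.39 and 0.38, and KRT19 and KRT8 were not called without HGF either.

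Cell-cell junction genes had 2 of 26 called higher, 1 lower and a median of 0.03, with 11.5% called against 10.7% of all genes. The tight junction genes TJP1 and CLDN3 were higher by 0.66 and 0.61, and TJP3 was lower by 0.73. CLDN3 fell below the fold limit with quantile normalization (0.55), within slide 2 (0.48) and without 16HBE-WT+HGF replicate 1 or 16HBE-ex14+HGF replicate 1 or 2 (0.58 each). The TJP3 arrays overlapped, and its call was lost with normexp (-0.43) and within slide 1 (-0.42). Without scaling 8 members of the list were called higher and 0 lower. CDH1, which encodes E-cadherin, differed by 0.02 (adjusted p = 0.952). Mesenchymal genes had 2 of 14 called higher and 2 lower. VIM and the transcription factor gene TWIST1 (0.75, adjusted p = 0.0422) were the higher ones, and FN1 and SNAI2, another transcription factor gene (-0.76, adjusted p = 0.00361), the lower. The TWIST1 arrays overlapped, and with normexp its difference was 0.05 (adjusted p = 0.691). Over the alternative settings, leaving out single arrays among them, TWIST1 kept its call in 14 of 27. SNAI2 differed by -0.47 with normexp and was not called, and it kept its call in 24 of 28 settings. CDH2, AXL, ZEB2 and ACTA2 were not called, at -0.56, 0.03, 0.02 and 0.46, so the members of this list did not move together.

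Cytokine genes were called in 10 of 23, 5 in each direction. Interleukin-1 genes were lower. IL1B measured 0.70, 0.60, 0.34 and 1.06 against -0.71, -1.92, -1.24 and -1.38 (difference -1.98, adjusted p = 0.000121), IL1A differed by -1.79, and IL1RN, the receptor antagonist, by -3.85 (adjusted p = 1.04e-07). A dimmer IL1RN probe differed by 0.23 and was not called, and with normexp the difference was -1.41. CSF3 and IL11 were lower by 1.29 and 1.22. Higher beside CCL2 were LIF (0.93), the neutrophil chemokines CXCL3 (0.76) and CXCL5 (0.71), and IL13RA2, the decoy receptor of interleukin-13. IL1RN was above background on 1 of 4 16HBE-ex14+HGF arrays. IL13RA2 was above background on 4 of 4 16HBE-ex14+HGF arrays and on none of the other 12, and was at least 3.12-fold higher (adjusted p = 0.00543), though with normexp it was not called (0.25, adjusted p = 0.134). IL6, CXCL8 and TNF were not called with HGF.

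Interferon-stimulated genes had 5 of 23 called lower and 1 higher, with a median of -0.30 (-0.18 without HGF), which was 0.09 without scaling of the arrays. After BST2, MX2, an antiviral GTPase, was at -2.25, -1.81, -2 and -1.56 against -3.07, -3.70, -3.69 and -3.64 (-1.62, adjusted p = 4.61e-05), with -0.72 by normexp, and a second MX2 probe differed by 0.27. IFI44 was lower by 1.52, IFI27 by 0.87 and IFI6 by 0.68, while ISG20 was higher by 0.65. With normexp IFI27 differed by -0.58 and was not called. The central genes ISG15, MX1, OAS1 and IFIT1 were not called, with differences of -0.47, -0.28, 0 and 0.02. In the class I antigen presentation list 2 of 15 were called, 13.3% against 10.7% of all genes. They were HLA-F (-0.76) and the immunoproteasome gene PSMB8 (-0.75), both lower, and neither was called without scaling. HLA-B, HLA-C and B2M differed by -0.37, -0.40 and -0.09, none of them called.

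Promoter sequence is shown here for the interferon list because a known binding motif occurs in many but not all of its members. The core of the interferon-stimulated response element, GAAA followed by any 2 bases and again GAAA, searched on both strands in the 250 bases before each RefSeq start, was present in 11 of the 17 members with a promoter at hand, and in 3.71% of all 27305 genes. It was in 5 of 5 called members with a promoter, BST2, IFI27, IFI44, IFI6 and ISG20, the last of which was higher, and in 6 of 12 that were not called, while MX2, also called, had no promoter in the table. The promoters of BST2 and IFI6 (RefSeq, GRCh38.p14, 5' to 3' on the strand of the gene) have this motif in capitals, where overlapping copies run together.
BST2 promoter, chr19:17405631-17405880, minus strand: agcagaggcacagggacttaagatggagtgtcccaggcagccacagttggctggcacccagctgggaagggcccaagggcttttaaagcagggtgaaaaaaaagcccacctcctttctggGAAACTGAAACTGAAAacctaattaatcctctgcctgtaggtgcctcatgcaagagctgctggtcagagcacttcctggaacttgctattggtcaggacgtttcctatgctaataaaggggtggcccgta
IFI6 promoter, chr1:27672193-27672442, minus strand: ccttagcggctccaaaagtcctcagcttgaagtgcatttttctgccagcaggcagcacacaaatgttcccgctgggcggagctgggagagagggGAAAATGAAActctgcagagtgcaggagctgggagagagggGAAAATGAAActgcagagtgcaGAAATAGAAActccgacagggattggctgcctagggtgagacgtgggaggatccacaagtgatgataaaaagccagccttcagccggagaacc
In BST2 2 overlapping copies begin 130 and 124 bases before the start, and IFI6 has 3 copies.

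Growth genes differed in detail. Of 20 mitotic genes 5 were called lower and 0 higher, with a median of -0.23 (0.01 without HGF), and the members were KIF20A (-0.86), BUB1 (-0.83), AURKA (-0.79), TOP2A (-0.76) and CDC20 (-0.66), which act in spindle assembly, its checkpoint and chromosome segregation. Without HGF 1 member of the list was called lower. KIF20A, BUB1, AURKA and TOP2A then differed by -0.55, -0.57, -0.56 and -0.42 and were not called. For KIF20A, BUB1 and AURKA only the fold limit was missed, with adjusted p of 0.00874, 0.0108 and 0.0105 by limma. The differences between the contrasts, in the order KIF20A, BUB1, AURKA and TOP2A, were -0.31, -0.26, -0.22 and -0.34, and none was called. With HGF AURKA measured 4.15, 4.32, 4.51 and 4.53 against 3.42, 3.37, 3.88 and 3.70 (adjusted p = 0.000994). MKI67 and CDK1 differed by -0.02 and 0.22 and were not called. Without 16HBE-WT+HGF replicate 1 the count was 8, and without scaling of the arrays none was called lower, 2 were called higher and the median was 0.16. Of 20 DNA replication genes 4 were called higher and 1 lower. The origin licensing factor CDT1 was at 4.37, 4.42, 4.22 and 4.12 against 5.22, 5.51, 5.47 and 5.59 (1.16, adjusted p = 4.34e-05), and GINS2, a helicase subunit, was higher by 1.12, and both genes lie on chromosome 16. CDC6 (not called with normexp, at 0.45) and CCNE1 were higher by 0.69 and 0.65. RRM2, a ribonucleotide reductase subunit, was lower by 0.71 on its brightest probe. Dimmer RRM2 probes differed by 0.70 and -0.17 and were not called. The MCM2 to MCM7 genes were not called.

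Sterol and fatty acid synthesis genes gave the most one-sided list, with 13 of 22 called lower and 0 higher, and a median of -0.76. The same number were called lower without HGF, where the median was -0.67. INSIG1, the sterol sensor that retains the SREBP factors in the endoplasmic reticulum, measured 3.52, 3.16, 3.24 and 3.32 against 1.57, 1.57, 1.63 and 1.49. It was 3.37-fold lower (adjusted p = 1.34e-06), with no overlap. HMGCS1, which makes the HMG-CoA of the mevalonate pathway, was at 1.71, 1.52, 1.49 and 1.64 against 0.40, 0.15, 0.44 and 0.09 (-1.32, adjusted p = 9.72e-05). SQLE, squalene epoxidase, and SCD, which desaturates fatty acids, both differed by -1.15, although the SCD call was lost within each slide. DHCR7, which makes cholesterol in the last step, was lower by 1.11 (adjusted p = 0.000207), and MVK, mevalonate kinase, by 1.02. LSS, SC5D, IDI1, MVD and FDPS were lower by 0.62 to 0.98. The regulators SREBF1 and SREBF2 differed by 0.11 and -0.32 and the fatty acid synthase gene FASN by -0.55, none of them called. With treat, which tests against the fold limit, 2 members were called lower, and without scaling of the arrays 6 were called lower and 1 higher.

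The promoters of this list were searched because 13 of its 22 members were called in the same direction. The letters CCAAT, the site of the factor NF-Y, on either strand in the 250 bases before the RefSeq start, were in 10 of 10 called members with a promoter at hand and in 3 of 6 that were not called, against 37% of all genes. The sterol regulatory motif TCACNCCAC was in 0 of 10 and in 1 of 6, against 1.09%. A promoter was at hand for 16 of the 22 members, and called members without one, SQLE among them, were not searched. The promoters of INSIG1, SCD and MVK are given 5' to 3' with CCAAT or its reverse complement in capitals (RefSeq, GRCh38.p14). These have the largest differences among called members with a single start in the table and at least 1 CCAAT.
INSIG1 promoter, chr7:155297628-155297877, plus strand: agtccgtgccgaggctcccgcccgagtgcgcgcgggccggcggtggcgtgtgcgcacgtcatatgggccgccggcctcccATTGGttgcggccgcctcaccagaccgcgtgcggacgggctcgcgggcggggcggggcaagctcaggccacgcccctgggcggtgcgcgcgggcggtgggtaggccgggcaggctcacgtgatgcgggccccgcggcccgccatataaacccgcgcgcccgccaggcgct
SCD promoter, chr10:100346983-100347232, plus strand: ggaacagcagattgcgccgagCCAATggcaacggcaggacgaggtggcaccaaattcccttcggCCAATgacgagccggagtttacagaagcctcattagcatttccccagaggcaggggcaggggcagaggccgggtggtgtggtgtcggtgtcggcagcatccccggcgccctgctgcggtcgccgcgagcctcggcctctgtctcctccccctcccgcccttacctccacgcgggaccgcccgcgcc
MVK promoter, chr12:109573544-109573793, plus strand: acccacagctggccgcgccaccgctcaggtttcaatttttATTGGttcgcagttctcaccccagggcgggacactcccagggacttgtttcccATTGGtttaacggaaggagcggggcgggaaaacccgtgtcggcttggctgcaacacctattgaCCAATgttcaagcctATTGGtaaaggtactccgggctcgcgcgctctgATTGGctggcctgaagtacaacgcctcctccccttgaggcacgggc
INSIG1 has 1 copy, SCD 2 copies and MVK 5, and the copy in INSIG1 begins 170 bases before the start.

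Other metabolic lists had fewer calls. Of 24 glycolysis and hypoxia-response genes 5 were called lower and 1 higher, while without scaling of the arrays 7 were called higher and 1 lower. EGLN3, a HIF prolyl hydroxylase, was at -2.97, -2.67, -3.25 and -2.73 in 16HBE-WT+HGF cells and not above background on any 16HBE-ex14+HGF array, at least 3.38-fold lower (adjusted p = 1.58e-05). With normexp EGLN3 differed by -0.58 and was not called, and a second EGLN3 probe differed by 0.49 and was not called. NDRG1 and ADM, both hypoxia-induced, were lower by 0.99 and 0.78, and PFKFB4 and LDHA by 0.77 and 0.61. The angiopoietin-like gene ANGPTL4 was higher, at 4.35, 4.16, 5.09 and 4.65 against 3.06, 3.13, 3.18 and 2.87 (1.5, adjusted p = 0.000608). Within slide 1, 1 member of this list was called. VEGFA, SLC2A1 and PGK1 were not called, at -0.01, -0.10 and -0.19. Of the NRF2 targets 3 of 17 were called, all lower, 17.6% against 10.7% of all genes. They were AKR1C3 (-1.76, and -0.65 with normexp), ME1 (-1.23) and PGD (-0.71), and NQO1 and HMOX1 were not called. Of the ATF4 list 3 of 18 were called, all higher, 16.7% against 10.7% of all genes. They were DDIT3 (0.73), CHAC1 (0.66) and TRIB3 (0.63), and none of the 3 was called within slide 1. A dimmer CHAC1 probe differed by 0.11 and was not called. TRIB3 also lost its call when any of 5 single arrays was left out, with adjusted p between 0.0733 and 0.0919, and without scaling 13 of the 18 were called higher.

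Airway differentiation genes were called in 3 of 15, 20% against 10.7% of all genes. FOXA2, a forkhead factor of foregut epithelium, had the largest difference of this list, at -3.86, -3.26, -4.06 and -3.86 on the 16HBE-WT+HGF arrays, 3 of them above background, and 1.06, 1.21, 1.75 and 1.49 on the 16HBE-ex14+HGF arrays (5.13, adjusted p = 1.57e-06). By normexp it was 2.77. Without HGF it was 4.62, where FOXA2 was not above background on any 16HBE-WT array, so that value is limited by the floor. SCNN1A, a subunit of the epithelial sodium channel, was higher by 1.35. ELF3, an epithelial ETS factor, was lower, at 3.05, 3.12, 2.88 and 3.20 against 1.76, 1.44, 1.03 and 1.15 (-1.72, adjusted p = 2.62e-05), and without HGF its difference was -0.58. CFTR, MUC1 and SCGB1A1 were not called, at -0.07, -0.34 and -0.16. Of the other cell type markers, LUM, a fibroblast proteoglycan gene, was above background on all 4 16HBE-WT+HGF arrays and on no 16HBE-ex14+HGF array, at least 2.23-fold lower (a log2 difference of -0.69 with normexp), and CSF1R, the receptor of a macrophage growth factor, was lower by 1.5.

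Called probes were unevenly spread over the chromosomes. On chromosome 16, 17.2% of 1574 probes were called higher and 1.84% lower, on chromosome 10 12.1% and 1.82%, and on chromosome 12 8.26% and 3.15%. The reverse was seen on chromosome 6, with 2.35% higher and 11.9% lower, on chromosome 21 with 2.97% and 11%, on chromosome 1 with 2.85% and 9.64% and on chromosome 2 with 2.40% and 8.61%. The shares without HGF were close to these, for example 18% higher on chromosome 16 and 11.9% lower on chromosome 6. In windows of 51 neighbouring genes (hg19) the highest median was 0.48, on chromosome 16 from 2204081 to 3022879 between RAB26 and PKMYT1, where 15 genes were called higher and 0 lower, and it was 0.48 without HGF. The lowest was -0.49, on chromosome 6 from 114182911 to 126301339 between MARCKS and HINT3, with 13 lower and 1 higher, and -0.39 without HGF. Windows on chromosome 12 (9493245 to 12797543) and chromosome 10 (81472181 to 89513058) had medians of 0.44 and 0.41. Over 501 windows that share no gene, the medians with and without HGF correlated at r = 0.89 (rho 0.85), a description of the same lines on separate arrays.

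**Figure D3:**
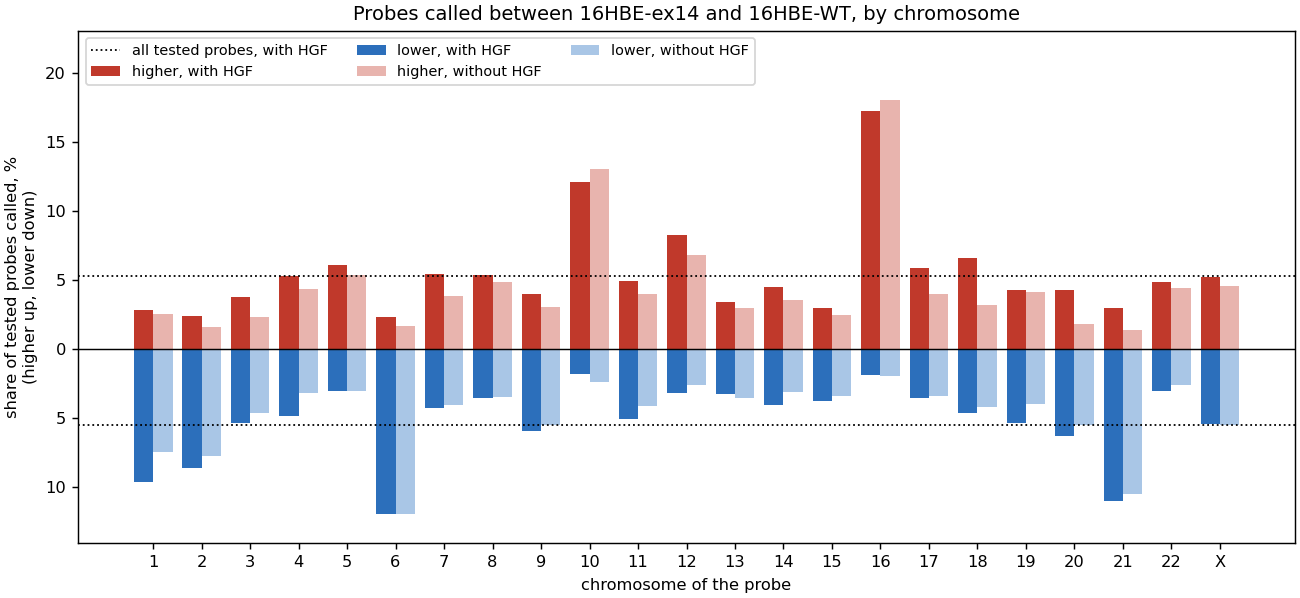
Share of tested probes called higher (up) and lower (down) in 16HBE-ex14 cells on each chromosome, with HGF (dark bars) and without HGF (pale bars). Dotted lines mark 5.32% and 5.52% over all probes with HGF. Chromosomes 16 and 10 stand highest, at 17.2% and 12.1%, and chromosomes 6 and 21 reach farthest down, at 11.9% and 11%.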

How the data were processed

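RNA of 16 cultures was hybridised to 1-colour Agilent arrays, 4 per condition. The authors deposited scanner files made with Agilent Feature Extraction 10.7.3.1, and the values used were their processed intensities, already background-subtracted. From these, log2 intensity minus the 75th percentile of each array was computed, outlier spots were left out, spots of a probe were averaged, and probes marked well above background on 4 or more of 16 arrays were tested. Conditions were compared with limma 3.58.1 in R 4.3.3, with 1 mean per condition over all 16 arrays, and called at a Benjamini-Hochberg adjusted p below 0.05 and a fold above 1.5. The procedure was tested on simulated data. P-values measure the spread between these arrays. The number of arrays limits the precision.

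A gene was described by its brightest probe. Named genes were the 10 largest differences in each direction among probes above background on all 8 arrays, the 5 largest bounds in each direction, up to 4 called members of each list with the largest differences, MET, HGF, and 9 protease and integrin genes the study names. The rule also took probes called in the difference between the contrasts, of which there were 0. Other list members are given by value. Members and lists were chosen with earlier results of these data known. Symbols and promoters came from RefSeq (GRCh38.p14), and probe positions are on hg19 as annotated in the files. Alternatives covered background correction, scaling, filters, slide and row, the prior, the fold limit, and leaving out each array. A few list members are counted in their lists but not reported here by name.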

Additional observations from a re-analysis of the deposited data

Results flagged for a closer look

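In 8 of 192 groups of 4 arrays, 1 array stood apart from the other 3 by more than Dixon's 95% critical ratio, which chance alone gives in about 1 of 20 groups. FOXL1 was at 1.16 in 16HBE-ex14+HGF replicate 3, against 0.67 to 0.69 on the other arrays. LIN28B was at -5.77 in 16HBE-ex14+HGF replicate 4, against -4.86 to -4.70, and PNMA8A at -6.50 in 16HBE-ex14+HGF replicate 2, against -5.10 to -4.95, and both were below background there. TJP1 was at 2.5 in 16HBE-WT+HGF replicate 3, against 2.67 to 2.69, and RRM2 at 2.07 in 16HBE-WT+HGF replicate 4, against 2.21 to 2.22. KRT17 was at -1.53 in 16HBE-ex14+HGF replicate 3, against -1.39 to -1.36. NID1 was at 0.95 in 16HBE-ex14+HGF replicate 2, against 1.19 to 1.23, and MX2 at -3.07 in 16HBE-ex14+HGF replicate 1, against -3.70 to -3.64. Leaving out any 1 of the 8 arrays with HGF kept the call of each of these 8 genes.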

How the results depend on the processing

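The count of 3749 probes called with HGF was 1814 with normexp background correction, 8205 without scaling, 2495 within slide 1, 603 with treat and 7125 with no fold limit. The count without HGF, 3252, was 1489, 7098, 444 and 6349 with normexp, no scaling, treat and no fold limit. The difference between the contrasts called 4 probes with normexp and 4 with a trended and robust prior. The share called higher with HGF was 58.8% with normexp, 66.6% with scaling to the array median, 60% to the E1A spike-ins, 40.3% with the percentile over probes above background on all arrays, 92.6% without scaling, 35.4% without the filter, 52.8% within slide 2 and 42% with treat. Leaving out 1 array at a time gave 3381 to 3825 probes with HGF, 2915 to 3364 without, 0 to 11 for the difference and 46.8% to 50.7% higher. The 11 were called without 16HBE-ex14 replicate 3, and 1, MMP1, without 16HBE-WT+HGF replicate 3. The cause of these changes was not tested. With normexp the differences of ITGB3 and ITGA1 were -0.01 and -0.05. Of 93 called genes, 45 moved by over 1.5 times with normexp and 20 without scaling. Each row of a slide held 1 array of every condition, and whether these came from the same week is not in the labels. The deviations of the HGF arrays that share a row correlated at 0.22, 0.25, 0.27 and 0.06, and the main fit did not use the row. With that row as a replicate block, 3994 probes were called with HGF, 3661 of them shared. For the named genes, leaving out 1 array left 753 results on the same side of the threshold, 14 lost and 1 gained the call. The other alternatives left 1777 on the same side, 89 lost and 8 gained the call, and 2 reversed in sign. Differences of probes near background are limited by signal over background.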
